A study of Mus musculus with 24 samples.

Results

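The writers, readers and erasers of DNA methylation were examined in primary mouse neural stem cells (NSCs): Dnmt1, Dnmt3a, Dnmt3b, Uhrf1, Tet1, Tet2, Tet3, Mbd1 and Mbd2. The genes were chosen by name, and all 9 were found among the 14922 genes of the deposited expression table. The NSCs were derived from the cortex of E14.5 embryos, grown as an adherent culture for fewer than 10 passages and all labelled female. Messenger RNA was sequenced in 24 libraries of 4 groups. FVB_WT cells were Smchd1+/+ on the FVB/NJ background, and FVB_MD43 cells were homozygous for MommeD43, a chemically induced missense allele of Smchd1, on the same background. B6GFP_MD43 cells were C57BL/6J, carried Smchd1 fused to GFP and were homozygous for MommeD43 made by CRISPR/Cas9 editing of that fusion. B6GFP_WT cells were C57BL/6J with the unedited fusion; their labels give Smchd1+/+, whereas in the study's text both copies of the gene carry the fusion. Strain, the GFP fusion and the origin of the allele therefore changed together and cannot be told apart.

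Methylation of cytosine in CpG dinucleotides is copied after replication by DNMT1, which UHRF1 brings to half-methylated sites, and is set on unmethylated DNA by DNMT3A and DNMT3B. The TET enzymes oxidise methylcytosine, the first step of its removal, and methyl-CpG binding domain proteins such as MBD1 and MBD2 read the mark and bring in repressor complexes. SMCHD1 is a non-canonical SMC protein that takes part in silencing the inactive X chromosome, imprinted genes and clustered genes, where its loss is known to go with loss of CpG methylation. Only RNA was measured in these libraries, so levels of the proteins and of methylation were not analysed here.

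Of the 24 columns, 2 equalled the mean of the other libraries of their group and were left out (in batch 1, replicate 3 of FVB_MD43 and replicate 2 of B6GFP_MD43). The remaining 22 were 6 libraries of 5 lines in FVB_WT, 5 of 4 in FVB_MD43, 6 of 4 in B6GFP_WT and 5 of 4 in B6GFP_MD43. Expression was given as log2 CPM (reads of a gene relative to the size of its library, on the log2 scale), after correction for batch. Batch 1 held both strains, batch 2 FVB and batch 3 B6GFP. Absolute depth is unknown. On a scale where the deepest library is 1, depth was lowest in batch 2 (0.137 to 0.19), while batch 1 spanned 0.526 to 0.893 and batch 3 spanned 0.435 to 1. The NSC markers Nes, Sox2, Vim, Fabp7 and Slc1a3 had group means of at least 7.64 log2 CPM. The other NSC markers listed were lower: Pax6 (4.8 to 5.05), Hes1 (4.32 to 5.89) and Prom1 (4.07 to 5.3). The oligodendrocyte lineage markers Olig1 (9.92 to 10.06) and Olig2 (9.07 to 9.34) and the neuronal marker Map2 (9.68 to 9.89) were also high. The other markers of these lineages were lower. Of 5 microglial and blood markers only Hbb-bs was in the table, with group means of at most -3.77. In 1 library, B6GFP_MD43 replicate 2 of batch 3, the neuronal markers Tubb3, Dcx, Rbfox3, Syt1 and Stmn2 were each at their highest of the 22 libraries (Dcx 5.2 log2 CPM, where B6GFP_WT had a mean of -0.83). In another, B6GFP_WT replicate 4 of batch 3, the astrocyte marker Gfap was at its highest (2.72). The astrocyte markers Aqp4, S100b and Aldh1l1 ranked 9, 9 and 7 of the 22 there, and were at their highest among B6GFP libraries. The libraries named, replicate 2 and replicate 4, were the deepest of the series (0.994 and 1). They had the lowest quality weights in the fit (0.158 and 0.101).

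The promoter sequences of 7 members were found in RefSeq (GRCm38.p6), as 12 windows from 250 bases before to 50 bases after a start site. They are shown first for the maintenance pair, Dnmt1 and Uhrf1, because these carried letters typical of E2F sites, the elements through which genes of DNA replication are switched on. The letters TTTCGCGC or TTTGGCGC, searched on both strands, occurred in 2 of the 12 windows and in 0.813% of the 32851 windows of all genes. In the stretches below, written 5′ to 3′ on the strand of the gene, the matched letters are in capitals and may lie on either strand. RefSeq lists several start sites for Dnmt1 and Uhrf1. The Dnmt1 matches lie by the start at position 20952623, downstream of the other starts (20952979 and 20959888), in a window whose upstream part overlaps an annotated exon, and the Uhrf1 match lies by the start at 56304313. Counted in bases from these starts, with negative values before them, the letters begin at -219 (chr9:20952824-20952853, minus strand) and 33 (chr9:20952574-20952603) for Dnmt1 and at -185 for Uhrf1 (chr17:56304117-56304146, plus strand). A match describes these letters and does not show a bound site.
Dnmt1, before the downstream start: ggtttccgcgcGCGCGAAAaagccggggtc
Dnmt1, after the downstream start: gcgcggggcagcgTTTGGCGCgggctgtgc
Uhrf1: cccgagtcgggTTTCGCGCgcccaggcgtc

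The 250 bases before the start sites of Tet2, the member with the widest strain difference below, and of Dnmt3b, the member whose groups separated in B6GFP, are shown with each CpG in capitals, since CpG is the substrate of the whole pathway. The Tet2 stretch (chr3:133544391-133544640, minus strand) holds 51 CpGs and the Dnmt3b stretch (chr2:153649199-153649448, plus strand) holds 21. The Tet2 start used here (133544390) lies downstream of the 5′ end of the annotated gene (133545136), so the Tet2 stretch lies within the gene span. Over the whole 300-base windows, the counts were 57 for Tet2 and 30 for Dnmt3b, against a median of 7 (quartiles 3 and 20) over all windows. The Tet3 and Tet1 windows held 22 and 17. Several windows were listed for the remaining members: 46, 47 and 18 for Dnmt3a, 2, 12 and 33 for Dnmt1, and 12 and 33 for Uhrf1.
Tet2: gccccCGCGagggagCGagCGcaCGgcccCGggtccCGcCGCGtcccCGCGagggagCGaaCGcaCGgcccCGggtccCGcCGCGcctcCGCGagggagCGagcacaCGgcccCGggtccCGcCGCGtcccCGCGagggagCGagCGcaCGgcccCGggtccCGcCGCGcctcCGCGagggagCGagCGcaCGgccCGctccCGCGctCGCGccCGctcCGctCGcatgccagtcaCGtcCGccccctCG
Dnmt3b: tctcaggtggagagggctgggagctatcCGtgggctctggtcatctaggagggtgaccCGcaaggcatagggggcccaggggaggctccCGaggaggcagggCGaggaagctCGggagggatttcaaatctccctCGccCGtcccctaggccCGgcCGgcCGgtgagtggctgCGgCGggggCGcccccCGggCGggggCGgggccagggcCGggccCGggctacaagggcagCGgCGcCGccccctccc

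The level of each gene was first compared with that of the others per kilobase of exon. Uhrf1, which brings DNMT1 to replicated DNA, and Dnmt1 itself were the highest members in all 4 groups. In FVB_WT, Uhrf1 stood at 6.22 ± 0.084 log2 CPM per kb (SD, n = 5 lines) and Dnmt1 at 5.91 ± 0.122. The readers and the main de novo enzyme followed: Mbd2 was at 4.21 ± 0.121, Mbd1 at 3.7 ± 0.109 and Dnmt3a at 3.52 ± 0.081. Among the erasers, Tet3 (3.17 ± 0.09) was above Tet2 (1.75 ± 0.252) and Tet1 (1.17 ± 0.123). Dnmt3b was the lowest at 0.03 ± 0.176. Neighbours in this order were set apart by more than their SDs in FVB_WT except Mbd1 and Dnmt3a, whose ranges of mean ± SD overlapped. In B6GFP_WT the ranges also overlapped for Uhrf1 and Dnmt1, for Dnmt3a and Tet3, and for Tet2 and Tet1. The order was the same in FVB_MD43 and B6GFP_WT, and in B6GFP_MD43 Dnmt3a (3.75 ± 0.186) came before Mbd1 (3.49 ± 0.023).

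**Figure D1:**
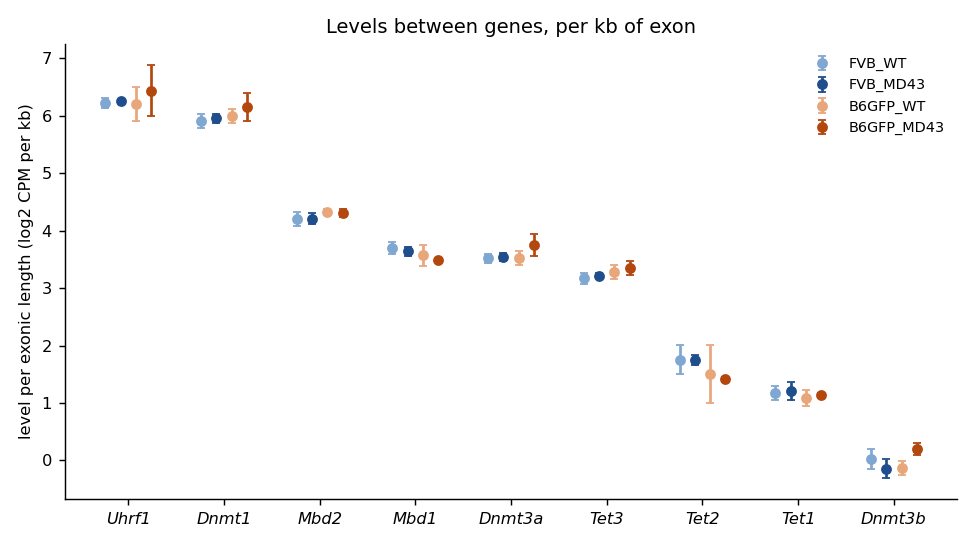
Level of each gene in log2 CPM per kb of exon (vertical axis), by gene from highest to lowest in FVB_WT, with 1 point per group for the mean of its lines and a bar of 1 SD over lines. Uhrf1 and Dnmt1 lie near 6 in every group, while Dnmt3b lies between -0.14 and 0.2.

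The main comparison asked whether the MommeD43 allele changed the RNA of these genes. No member passed in either strain (limma, Benjamini-Hochberg adjustment over all 14922 genes, threshold 0.05). In FVB, 0 of 9 passed, with 0 of 9 also at an unadjusted p under 0.05, where 0.0737% of all genes passed and 6.86% were under 0.05 unadjusted. In B6GFP, 0 of 9 passed and 0 of 9 were under 0.05 before adjustment, where 0% of all genes passed and 2.14% (319 genes) were under 0.05 unadjusted. For the average over strains the counts were 0 and 0 of 9, beside 0.0335% and 4.62% of all genes. For the difference of the effect between strains 0 of 9 passed, beside 0% of all genes, and 1 of 9 (Dnmt3b) was under 0.05 unadjusted, beside 3.07%. The median change of the members was 0.03 in both strains, where that of all genes was 0.01. The fitted changes within FVB and within B6GFP lay between -0.11 and 0.27 on the log2 scale.

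**Figure D2:**
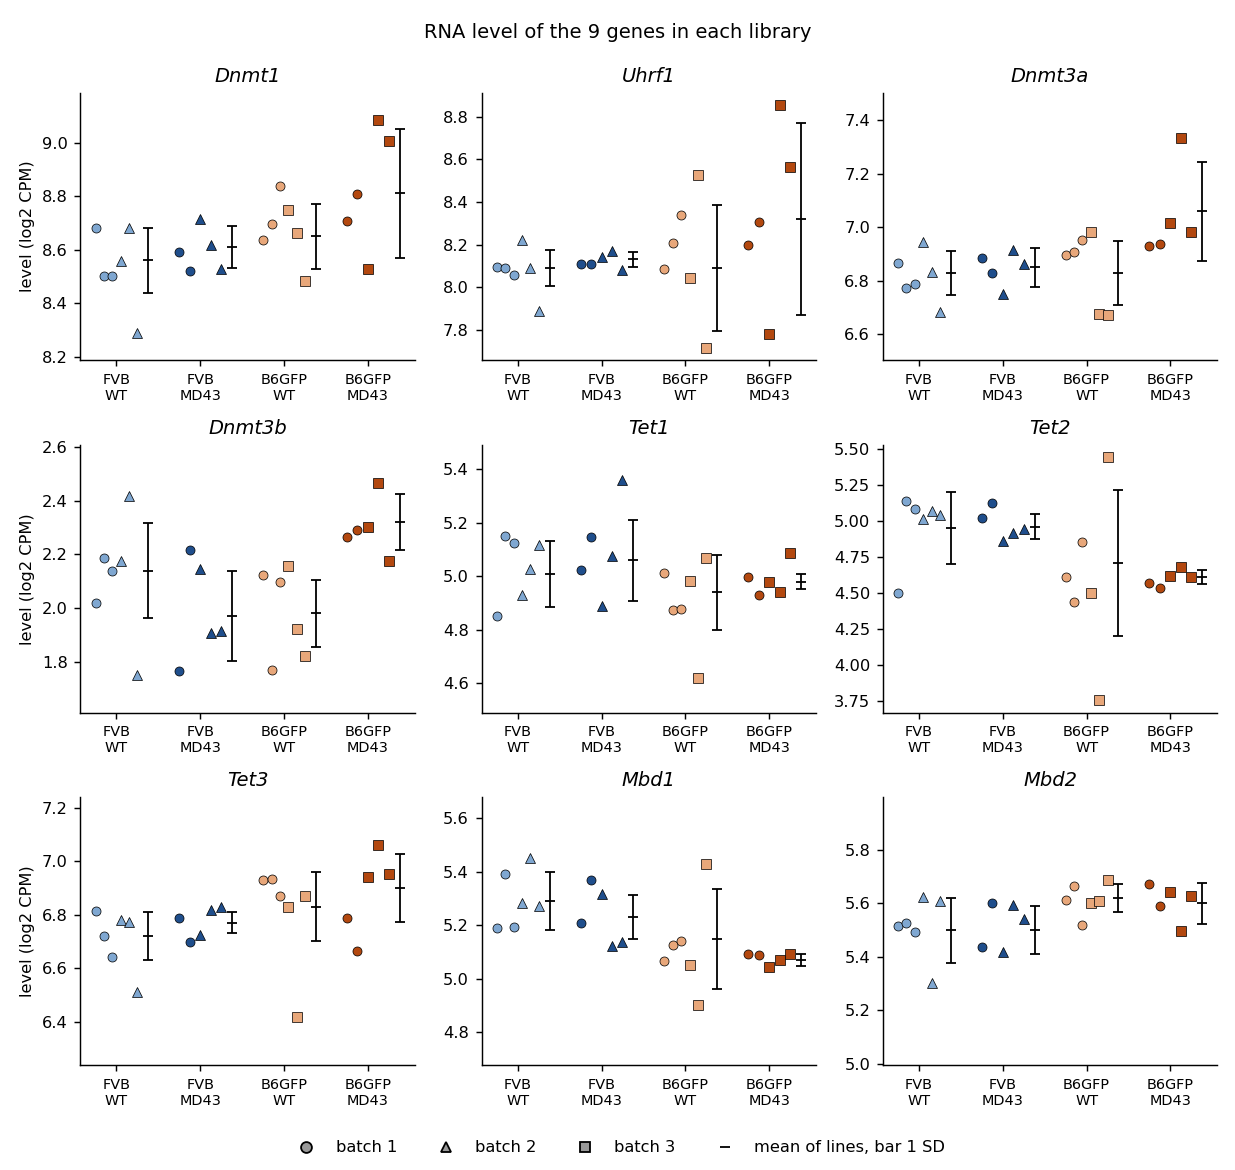
Level of each of the 9 genes in log2 CPM (vertical axes, which differ between panels but each span at least 1 unit) in every library of the 4 groups. Points are libraries, with their shape giving the batch, and the bar is the mean of the lines ± 1 SD. Library ranges overlap between MommeD43 and wild type in every panel except Dnmt3b in B6GFP.

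Of the maintenance pair, Dnmt1 (chr9:20907206-20959888) was listed in FVB_WT libraries from 8.29 to 8.68 log2 CPM (median 8.53) and in the FVB_MD43 libraries at 8.59, 8.52, 8.71, 8.62 and 8.53. The groups overlapped, and the fitted change was 0.04 (SE 0.052, 95% interval -0.07 to 0.15, adjusted p = 0.955). In B6GFP_WT it ranged from 8.48 to 8.84 (median 8.68), and the B6GFP_MD43 libraries stood at 8.71, 8.81, 8.53, 9.08 and 9.01. The 2 highest values of all 22 libraries were thus B6GFP_MD43 libraries, but their group also held one below the wild type median, and the fitted change was 0.03 (adjusted p = 1), where unweighted line means differed by 0.159 (exact permutation test, two-sided, p = 0.286). Uhrf1 (chr17:56303337-56323486) varied least in FVB_MD43, between 8.08 and 8.17, within the FVB_WT range of 7.89 to 8.22. In B6GFP it varied most, from 7.71 to 8.53 in wild type and from 7.78 to 8.86 in MommeD43. Its fitted changes were 0.03 in FVB (SE 0.069, adjusted p = 0.989) and 0.03 in B6GFP (adjusted p = 1). The unweighted B6GFP line means of Uhrf1 differed by 0.228, with 3 of 4 MommeD43 lines above the wild type mean (exact permutation test, two-sided, p = 0.343, adjusted p = 0.957), and batch 3 alone gave a fitted 0.29.

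Of the de novo enzymes, Dnmt3a (chr12:3801559-3914443) overlapped between the groups of both strains. Its libraries ranged from 6.68 to 6.94 in FVB_WT, from 6.75 to 6.92 in FVB_MD43 and from 6.67 to 6.98 in B6GFP_WT. The B6GFP_MD43 libraries stood at 6.93, 6.94, 7.02, 7.33 and 6.98, where the library at 7.33 was the one with the highest neuronal markers. The fitted changes were 0.05 in FVB (SE 0.04, adjusted p = 0.921) and 0.05 in B6GFP (adjusted p = 1). With lines weighted equally the B6GFP difference was larger, at 0.23, and each of the 4 MommeD43 lines exceeded the mean of wild type (exact permutation test of line means, two-sided, p = 0.0571, adjusted p = 0.514 over 18 tests).

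Dnmt3b (chr2:153649411-153687730) was the only member whose libraries did not overlap within a strain. The B6GFP_MD43 libraries stood at 2.26, 2.29, 2.3, 2.47 and 2.18, and those of B6GFP_WT ranged from 1.77 to 2.16 (median 2.01). All 5 MommeD43 libraries were thus above all 6 wild type libraries, although the gap between the groups was 0.018, and non-overlap in either direction was met by 0.208% of all genes in B6GFP. The same line sequenced again differed by 0.39 (B6GFP_WT replicate 2, 1.77 in batch 1 and 2.16 in batch 3). The fitted change was 0.27 (fold 1.21, SE 0.14, 95% interval -0.02 to 0.56, adjusted p = 1). The line means differed by 0.34, and all 4 MommeD43 lines were above the wild type mean (exact permutation test, two-sided, p = 0.0286, the smallest that 4 against 4 lines can give, adjusted p = 0.514). Without B6GFP_MD43 replicate 2, the line with the highest neuronal markers, the fitted change was 0.26. Of 6 neuronal markers 0 passed for MommeD43 in B6GFP, and their summed level was 9.81 to 9.97 in B6GFP_WT and 9.88 to 10.4 in B6GFP_MD43. That sum is mostly Map2 (group means 9.76 and 9.89). The B6GFP_WT and B6GFP_MD43 means of the other markers were 2.34 and 3.82 for Tubb3, -0.83 and 1.5 for Dcx, 0.46 and 0.98 for Rbfox3, 5.72 and 6.04 for Syt1, and -3.51 and -0.6 for Stmn2. With quality weights, the fitted changes were -0.12 for Tubb3, 0.21 for Dcx, -0.44 for Rbfox3, 0.23 for Syt1 and 0.34 for Stmn2. The part of these markers in the Dnmt3b values was not tested.

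In FVB the Dnmt3b values went the other way and overlapped. FVB_WT ranged from 1.75 to 2.42 (median 2.16), and the FVB_MD43 libraries stood at 1.76, 2.22, 2.14, 1.91 and 1.91. The fitted change was -0.11 (SE 0.108, 95% interval -0.33 to 0.11, adjusted p = 0.928), and the call turned on single lines. Without FVB_MD43 replicate 2 it was -0.36 and passed (adjusted p = 0.02), in a fit where 6.54% of all genes passed, while without FVB_MD43 replicate 1 it was 0.002. The MommeD43 effect in B6GFP less that in FVB was 0.38 (SE 0.177, 95% interval 0.01 to 0.75), with a p of 0.0426 before and 1 after adjustment by limma over all genes. Dnmt3b was the lowest member, and batch 2, which held FVB alone, was the shallowest.

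**Figure D3:**
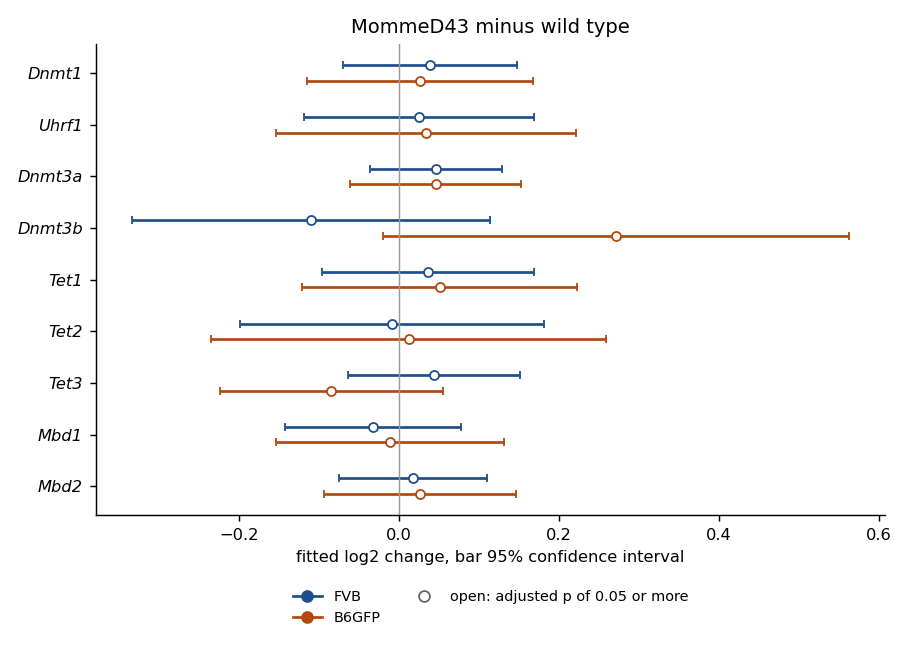
Fitted log2 change of MommeD43 against wild type (horizontal axis) for each gene in FVB and in B6GFP, with 95% confidence intervals. All markers are open because no change passed, every interval holds 0, and Dnmt3b in B6GFP is farthest from 0 at 0.27.

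The erasers showed no MommeD43 change beyond the spread between lines. Tet1 (chr10:62804570-62887469) ranged from 4.85 to 5.15 in FVB_WT and from 4.89 to 5.36 in FVB_MD43, with a fitted change of 0.04 (SE 0.064, adjusted p = 0.974). In B6GFP the ranges were 4.62 to 5.07 and 4.93 to 5.09, and the change was 0.05. Tet2 (chr3:133463677-133545136) had means of 4.95 ± 0.252 (SD, n = 5 lines) in FVB_WT and 4.96 ± 0.085 (n = 4) in FVB_MD43, with a change of -0.01 (SE 0.091, 95% interval -0.2 to 0.18, adjusted p = 1). In B6GFP_WT it spread widely, from 3.75 to 5.44, around the narrow B6GFP_MD43 range of 4.53 to 4.68, and the change was 0.01. Both extremes were batch 3 libraries, replicate 3 at 3.75, for which the same line had 4.86 in batch 1, and replicate 4 at 5.44, the library with the highest Gfap. Tet3 (chr6:83362373-83457208), the highest eraser, changed by 0.04 in FVB (SE 0.052, adjusted p = 0.945) and by -0.08 in B6GFP (adjusted p = 1), where unweighted line means differed by 0.07 in the opposite direction.

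The readers did not pass either. Mbd1 (chr18:74267605-74282737) ranged from 5.19 to 5.45 in FVB_WT and from 5.12 to 5.37 in FVB_MD43, and from 4.9 to 5.43 in B6GFP_WT and from 5.04 to 5.09 in B6GFP_MD43. Its changes were -0.03 (SE 0.053, adjusted p = 0.969) and -0.01 (adjusted p = 1). Mbd2 (chr18:70568225-70629134), the methyl-CpG reader of the NuRD repressor complex, had group means between 5.5 and 5.62 in all 4 groups and changed by 0.02 in FVB (SE 0.044, adjusted p = 0.985) and by 0.03 in B6GFP. Library ranges of MommeD43 and wild type overlapped for 9 of 9 members in FVB, where 0.456% of all genes did not overlap.

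For the rest of the pathway, in lists chosen by role, no gene passed for MommeD43, where 0.0737% of all genes in FVB and 0% in B6GFP did, so these counts do not set the lists apart from other genes. Of the writers' partners 0 of 10 in the table passed in either strain, of the other readers and NuRD subunits 0 of 21, and of erasers and base excision repair 0 of 16. Within each of these lists, the smallest p value in FVB was that of Mat2b for the writers' partners (-0.08, adjusted p = 0.837). Mat2b is a subunit of the enzyme that makes the methyl donor. For the readers it was that of the histone deacetylase Hdac2 (-0.08, adjusted p = 0.768). For the erasers and repair genes it was that of the glycosylase Neil3 (0.14, adjusted p = 0.826). In B6GFP the smallest within the same lists were Mat2a (0.08), Mbd4, a glycosylase that binds methyl-CpG (0.15), and again Neil3 (0.14), all with an adjusted p of 1. Unweighted B6GFP line means of Mat2a went the other way (8.484 in MommeD43 and 8.508 in wild type), while those of Mbd4 and Neil3 kept the direction. Of 14 germline genes known to be kept silent by promoter methylation, 5 were in the table and 0 passed in either strain. In B6GFP the smallest p was that of Sycp3, a meiotic chromosome axis protein, with a fitted change of 0.43 (adjusted p = 1), and in FVB its change was 0.2 (adjusted p = 0.898). Unweighted B6GFP line means of Sycp3 were close, at 0.33 in MommeD43 and 0.31 in wild type. Of 20 genes of S phase and proliferation 0 passed, with a median fitted change of 0.05 in FVB and 0.002 in B6GFP. In the B6GFP fit 11 were above 0 and 9 below. Unweighted B6GFP line means were higher in MommeD43 for every gene of this list. The smallest gap was that of Mcm4 (7.896 against 7.839 in wild type) and the largest that of Ccne1 (5.793 against 5.565).

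The strains themselves were compared next, B6GFP minus FVB, separately in wild type and in MommeD43 libraries. In wild type, 4 of 9 members passed, a share close to the 41.1% of all genes that did. Tet2 and Mbd1 were lower in B6GFP, and Dnmt1 and Tet3 were higher. In MommeD43 libraries 3 of 9 passed, where 34.4% of all genes did: Tet2 and Mbd1 were again lower and Dnmt1 again higher. These calls rest on the quality weights: without them 0 of 9 passed in both comparisons, and 8.44% and 6.82% of all genes. Reads of both strains were mapped to the C57BL/6J reference, which cannot be told apart from a strain difference here.

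Tet2, an eraser, had the widest difference. In wild type it was lower in B6GFP by 0.5 on the log2 scale (fitted change -0.5, fold 0.708, SE 0.103, adjusted p = 0.000648), and in MommeD43 libraries the change was -0.48 (fold 0.719, SE 0.122, adjusted p = 0.0046). The 5 B6GFP_MD43 libraries (4.53 to 4.68) were all below the 5 FVB_MD43 libraries (4.86 to 5.12). The wild type libraries overlapped, since B6GFP_WT held both the lowest and the highest value of the series. Unweighted line means differed by less, 4.71 ± 0.506 (SD, n = 4) against 4.95 ± 0.252 (n = 5) in wild type. Tet2 kept its direction under all 30 alternatives in each comparison and passed under 29 of them, the exception being the fit without weights (adjusted p = 0.541 and 0.575). Within batch 1, the only batch with both strains, the changes were -0.46 and -0.52.

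Mbd1, a reader, differed by -0.22 in wild type (SE 0.06, adjusted p = 0.00519) and by -0.2 in MommeD43 (SE 0.07, adjusted p = 0.0302). The calls held under 27 and 22 of 30 alternatives. In wild type the value was -0.16 without FVB_WT replicate 2 (adjusted p = 0.114). In MommeD43 it was -0.11 without FVB_MD43 replicate 2 (adjusted p = 0.129) and -0.2 without B6GFP_MD43 replicate 4 (adjusted p = 0.055). Its B6GFP_MD43 libraries (5.04 to 5.09) lay below the FVB_MD43 libraries (5.12 to 5.37), with a gap of 0.03, while the wild type libraries overlapped. Dnmt1 differed by 0.19 in wild type (SE 0.059, adjusted p = 0.0128) and by 0.18 in MommeD43 (SE 0.07, adjusted p = 0.05, just under the threshold), and in MommeD43 it passed under 15 of the 30 alternatives. Its wild type call was lost without FVB_WT replicate 2 (0.16, adjusted p = 0.0825), and its MommeD43 call without any 1 of 8 lines (values of 0.156 to 0.182). In wild type cells these were replicates 3, 4 and 5 of FVB_WT and 3 and 4 of B6GFP_WT, and in MommeD43 cells replicates 2 and 5 of FVB_MD43 and replicate 2 of B6GFP_MD43. The unweighted wild type means of Dnmt1 were closer, 8.65 ± 0.121 (SD, n = 4) against 8.56 ± 0.122 (n = 5). Tet3 differed by 0.2 in wild type (SE 0.059, adjusted p = 0.0112), a call lost without B6GFP_WT replicate 1 or without replicate 2 (0.16 and adjusted p = 0.11 without the latter), and in MommeD43 the value was 0.07 (adjusted p = 0.489), a contrast between genotypes that did not pass a test of its own (adjusted p = 1). Dnmt3a had fitted changes of 0.11 in both comparisons without passing (adjusted p = 0.0541 and 0.113), but without quality weights they were 0.02 in wild type and 0.2 in MommeD43. Its MommeD43 libraries did not overlap between strains, with a gap of 0.012.

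Library ranges did not overlap between strains for 0 of 9 members in wild type, beside 10.3% of all genes, and for 3 of 9 in MommeD43 (Tet2, Mbd1, Dnmt3a), beside 16.7%. The members not named as passing had fitted values of 0.11 and 0.12 for Uhrf1, 0.09 and 0.1 for Mbd2, -0.16 and -0.15 for Tet1, and -0.19 and 0.2 for Dnmt3b. For Uhrf1 in wild type, unweighted line means were 8.089 in B6GFP and 8.091 in FVB, and the fit without quality weights gave 0.03. In MommeD43 its line means were 8.317 and 8.129.

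**Figure D4:**
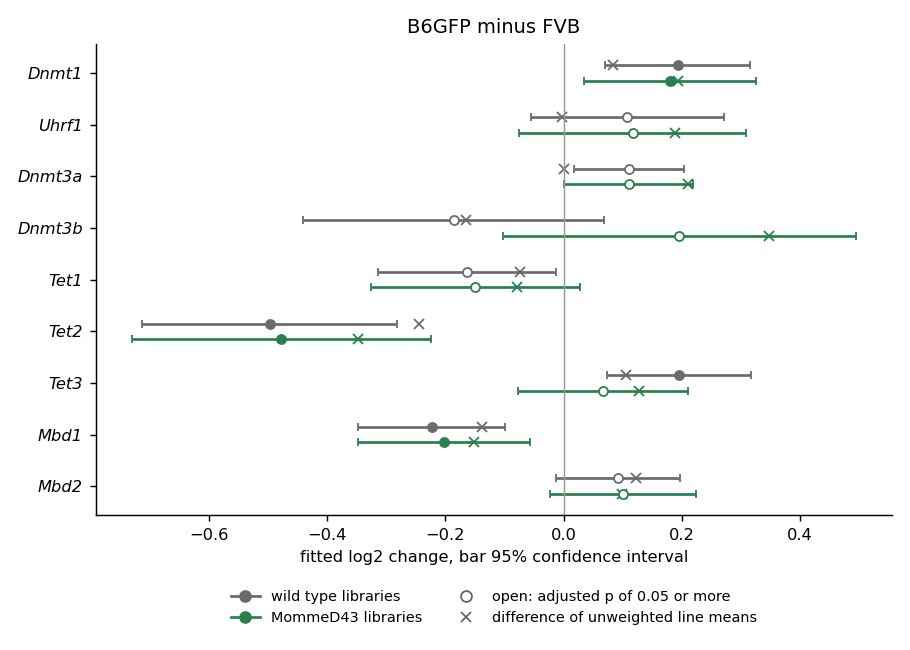
Fitted log2 change of B6GFP against FVB (horizontal axis) for each gene in wild type and in MommeD43 libraries, with 95% confidence intervals, filled where the adjusted p was under 0.05, and crosses for the difference of unweighted line means. Tet2 lies near -0.5 in both comparisons, and its wild type cross is at a smaller difference.

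Other genes of the pathway differed between strains in both directions, beside the 41.1% of all genes that passed in wild type. In wild type 5 of 10 partners of the writers passed, 4 higher and 1 lower in B6GFP: Cdca7, a partner of the remodeller Hells, was at -0.36 (adjusted p = 0.000463) and Ahcy, which clears the product of methyl transfer, at 0.42 (adjusted p = 0.000112). Of the readers and NuRD subunits 6 of 21 passed, with Hdac1 at 0.68 (adjusted p = 9.63e-09) and Mbd4 at -0.57 (adjusted p = 0.000385). Of erasers and repair genes 4 of 16 passed, among them Tdg, the glycosylase that cuts out oxidised methylcytosine, at 0.7 (adjusted p = 5.34e-09), and Apobec3, a cytidine deaminase, at -0.64. All 5 germline genes in the table passed, 2 higher and 3 lower, with Sycp1 at -4.99, and 3 of the 5 had a mean below 0 log2 CPM.

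Of genes of S phase and proliferation, 11 of 20 passed in wild type, where 41.1% of all genes did, and 6 of 20 in MommeD43, where 34.4% did. All of those that passed were higher in B6GFP, and their summed level ran from 11.8 to 12.1 log2 CPM in FVB_WT, from 11.9 to 12.4 in B6GFP_WT, from 12 to 12.2 in FVB_MD43 and from 12 to 12.5 in B6GFP_MD43. The astrocyte markers Gfap, Aqp4, S100b and Aldh1l1 were lower in B6GFP, 4 of 4 in both comparisons. Their summed level was 6.14 to 7.31 in FVB_WT, 4.35 to 6.71 in B6GFP_WT, 6.2 to 7.57 in FVB_MD43 and 5.06 to 5.62 in B6GFP_MD43, and 3 of the 4 had a mean below 0 log2 CPM. Of 8 NSC and radial glia markers 7 passed in wild type (2 higher and 5 lower in B6GFP) and 6 in MommeD43 (2 higher and 4 lower). Of 6 oligodendrocyte lineage markers 4 passed in each comparison (2 higher and 2 lower). Of 6 neuronal markers 3 passed in each (1 higher and 2 lower in wild type, 2 higher and 1 lower in MommeD43). The part of any of these lists in the strain differences of the members was not tested. In cultures of mixed cells, fewer cells of a type and less RNA per cell cannot be told apart.

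The members of each role were then related over the means of the lines within a strain, in 8 relations. In B6GFP, Dnmt1 and Uhrf1 rose and fell together over 8 lines (Pearson r = 0.97, exact permutation p = 7.44e-05, adjusted p = 0.000595, Spearman rho = 0.976, permutation p = 0.000397, adjusted p = 0.00317). Both were lowest in B6GFP_WT replicate 4 and B6GFP_MD43 replicate 4 and highest in B6GFP_MD43 replicate 2; the first and last of these are the libraries with outlying cell type markers and the lowest quality weights. As a description over the same lines, the mean of 20 S phase genes had an r of 0.94 with Dnmt1 and 0.99 with Uhrf1 in B6GFP, and of 0.84 and 0.28 in FVB. The part of either in the relation was not tested. Without the 2 lines farthest from the median of Dnmt1, r was 0.903, and within batch 3, over 6 libraries of 6 lines, it was 0.876. In FVB, where Uhrf1 varied less (SD of lines 0.084 in FVB_WT and 0.034 in FVB_MD43, against 0.296 and 0.451 in B6GFP), r was 0.519 over 9 lines (permutation p = 0.149, adjusted p = 0.217, rho = 0.467, permutation p = 0.211, adjusted p = 0.282) and 0.018 without the 2 farthest lines. Whether the strains differ in this relation was not tested. Within batches, given as a description with no test, r was 0.982 over the 5 B6GFP libraries of batch 1, 0.347 over the 5 FVB libraries of batch 1 and 0.762 over the 6 of batch 2.

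Dnmt3a and Dnmt3b were related in B6GFP by Pearson's r (r = 0.875, n = 8 lines, exact permutation p = 0.00355, adjusted p = 0.0142) but not after adjustment by rank (rho = 0.81, permutation p = 0.0218, adjusted p = 0.0871). The relation rested on the farthest lines: without 2 of them r was 0.625 (exact permutation p = 0.185), and the highest point of both genes was B6GFP_MD43 replicate 2. Within batches r was 0.456 in batch 1 and 0.971 in batch 3. In FVB r was -0.156 (permutation p = 0.695 with n = 9 lines, adjusted p = 0.695, rho = -0.167, permutation p = 0.678). Tet2 with Tet3 and Mbd1 with Mbd2 passed in neither strain. For Tet2 with Tet3, r was -0.5 in FVB (permutation p = 0.163, adjusted p = 0.217, rho = -0.683, permutation p = 0.0503, -0.756 without the 2 farthest lines) and 0.305 in B6GFP (exact permutation p = 0.384, adjusted p = 0.439, rho = 0.643, permutation p = 0.0962, 0.632 without 2). For Mbd1 with Mbd2, r was -0.572 in FVB (permutation p = 0.11, adjusted p = 0.217, rho = -0.383, permutation p = 0.316) and 0.539 in B6GFP (exact permutation p = 0.154, adjusted p = 0.217, rho = 0.571, permutation p = 0.151, 0.17 without 2 lines). Within batches these values did not keep a sign for Mbd1 with Mbd2, at 0.688 in batch 1 and -0.724 in batch 2 for FVB and at -0.351 in batch 1 and 0.506 in batch 3 for B6GFP. For Tet2 with Tet3 they were -0.724 and -0.336 in FVB and 0.085 and 0.673 in B6GFP, and for Dnmt3a with Dnmt3b in FVB -0.793 and 0.299.

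**Figure D5:**
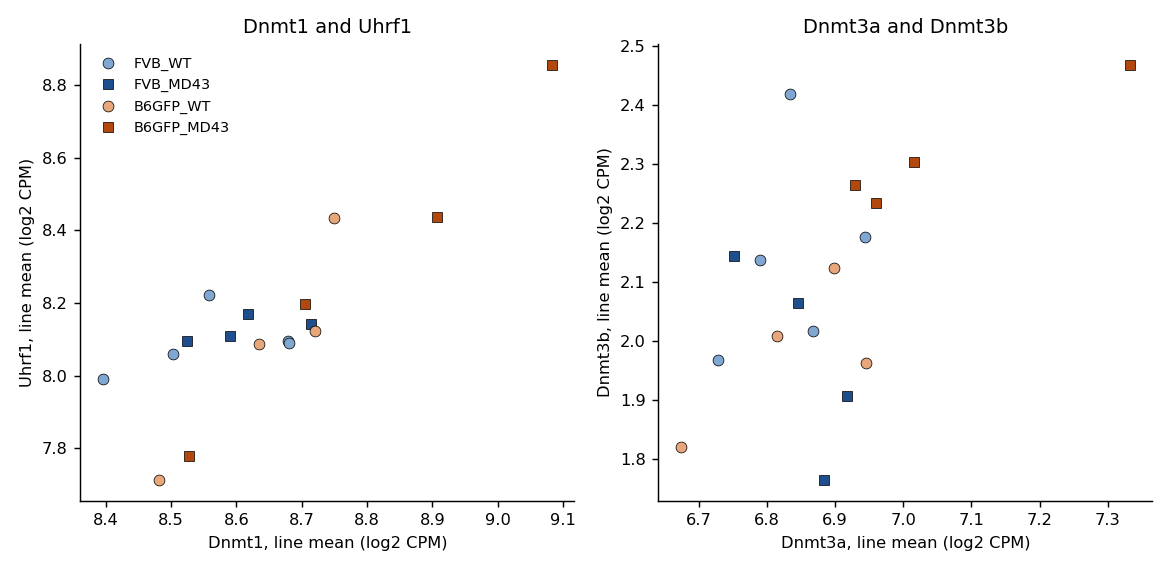
Line means of Dnmt1 against Uhrf1 (left) and of Dnmt3a against Dnmt3b (right), in log2 CPM on all axes, with 1 point per line (circles wild type, squares MommeD43) in the colour of its group. The 8 B6GFP lines follow a common slope for Dnmt1 and Uhrf1 (r = 0.97), and 1 B6GFP_MD43 line is farthest up in both panels.

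The genes most like each member were found among 12842 others with a mean of at least 0 log2 CPM, by the smaller of the Pearson r over 9 FVB lines and over 8 B6GFP lines. The values share libraries and were chosen as the highest, so they describe these lines only. Dnmt1 was most like Chaf1a, a subunit of the factor that assembles nucleosomes at replication forks (r = 0.97 in FVB and 0.97 in B6GFP), and Lig1, the ligase that joins Okazaki fragments (0.95 and 0.97). Uhrf1 was most like Cad, the enzyme that opens pyrimidine synthesis (0.91 and 0.91), and Chd4, the remodeller of NuRD (0.91 and 0.89). Dnmt3a was most like the kinase Dapk1 (0.98 and 0.93) and the non-muscle myosin Myh10 (0.92 and 0.92), and Dnmt3b like Tyw3 (0.85 and 0.91) and Aptx, a DNA repair enzyme (0.8 and 0.83). For the erasers the nearest genes were Tspyl2 and Ccpg1 for Tet1 (0.84 and 0.81, 0.79 and 0.88), Ammecr1l and Zfp263 for Tet2 (0.93 and 0.93, 0.91 and 0.95) and Itga9 and Pcbp3 for Tet3 (0.89 and 0.9, 0.86 and 0.83). For the readers they were Plcd1 and Cdip1 for Mbd1 (0.84 and 0.93 for both) and Mtmr6 and Zfand6 for Mbd2 (0.93 and 0.92, 0.9 and 0.91).

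The spread between repeats of one line is given as a description, and the p-values above do not rest on it alone. In 5 lines sequenced in both batches of their strain, the 45 repeat differences of the members had a median size of 0.13 and exceeded 0.25 in 9 cases. The widest was -1.1 for Tet2 in B6GFP_WT replicate 3, where Tet3 also differed by -0.45 and Mbd1 by -0.24. Dnmt3b differed by -0.43 in FVB_WT replicate 2 and by -0.3 in FVB_MD43 replicate 2.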

How the data were processed

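Poly(A) RNA of NSCs (100 ng per library) was sequenced, and per the labels and the study's methods the authors trimmed reads with Trim Galore 0.4.4, mapped them to GRCm38.p6 with HISAT2 2.0.5 and used limma 3.40.6. The counter and annotation are not given in the sources used here. The table as deposited gave log2 CPM for each gene, which the authors had corrected for batch; the largest batch coefficient left over all genes was 7e-09, so values do not convert directly to reads. Within a batch, 1 read still lifted low genes by a common step, which gave relative depth (87.6% or more of low values per library fell on whole reads within 0.05).

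A linear model (limma 3.58.1, R 4.3.3) was fitted to 22 libraries and 14922 genes, with group and batch as terms, array quality weights (0.1 to 4.9), line as a block through duplicateCorrelation (consensus 0.0829) and a mean-variance trend. P-values were adjusted by Benjamini-Hochberg and are two-sided. Columns within 1e-06 of their group mates' mean were left out. Group means and SDs are over lines, with unequal weights only in the fit, so a fitted change can differ from the difference of means. Permutation tests used line means (all splits or pairings, or 100000 permutations for 9 lines). Levels per kb used the union of annotated exons. Some wild type and MommeD43 lines share a leading number in the labels, whose meaning is not stated, and nothing used here says that lines came from separate litters, so p-values measure the spread between these libraries. On simulated data for these groups, the fit was tested before use.

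The members and lists were chosen with earlier results of these data known. Named genes were the 9 members, genes of the role lists passing in a MommeD43 comparison or otherwise those of smallest p within their list, and the 2 genes most like each member. In the strain comparison and the marker lists other genes were named after their values were seen. Alternatives were other weights, blocks, batch terms, scalings, filters and lines left out.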

Additional observations from a re-analysis of the deposited data

Results flagged for a closer look

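Each group of 5 or 6 libraries was searched for 1 library far from the others by Dixon's criterion at the 95% level. Of 36 groups (9 genes in 4 groups), 3 met it, where chance gives about 1 in 20. Dnmt3a was at 7.33 log2 CPM in B6GFP_MD43 replicate 2 of batch 3, above the others of its group (6.93 to 7.02), in the library where Tubb3, Dcx, Rbfox3, Syt1 and Stmn2 were highest of the 22. Their part in the value was not tested. Tet2 was at 4.5 in FVB_WT replicate 1 of batch 1, below the other libraries of its group. Tet3 was at 6.42 in B6GFP_WT replicate 3 of batch 3, while the same line had 6.87 in batch 1. No member's MommeD43 effect differed between strains by limma's adjusted test.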

How the results depend on the processing

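The count of members passing for B6GFP against FVB was 4 in wild type and 3 in MommeD43. Without quality weights both counts were 0 (8.44% and 6.82% of all genes). In MommeD43 the count was 1 in batch 1 alone (24.1% of all genes), 1 without B6GFP libraries of batch 3 (27.8%), 1 without FVB libraries of batch 2 (31.2%), 5 with 1 mean per line (44.5%) and 9 with all 24 columns (93.8%). With all 24 columns, 2 members (Dnmt3a and Dnmt3b) passed for MommeD43 in B6GFP (3.22% of all genes) and 1 (Dnmt3a) for the average over strains (6.77%); that setting counts a group mean as a library. Leaving out each line in turn gave counts of 2 to 6 in wild type (2 without FVB_WT replicate 2, with 26.9% of all genes) and of 2 to 4 in MommeD43, and of 0 to 1 for MommeD43 in FVB (Dnmt3b without FVB_MD43 replicate 2, with 6.54% of all genes). All other counts were within 1.5 times.

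Deviations of same-numbered libraries of the groups had correlations of -0.587 to 0.323, and the reported fit did not pair them. The highest, 0.181 in batch 1 and 0.323 in batch 3, were those of B6GFP replicate 3, whose lines share a leading number in the labels. As most same-numbered lines do not share one, these values cannot show whether lines came from one litter. With the replicate block 5 members passed in wild type and 2 in MommeD43. Over 1656 values of single members under the alternatives, 35 passed only there, 34 passed only in the reported fit and 127 had another sign where neither passed, and no called change reversed. The relation of Mbd1 and Mbd2 over FVB lines turned from -0.572 to 0.221 without the 2 farthest lines, and that of Dnmt3a and Dnmt3b over B6GFP lines was then 0.625. The alternatives without B6GFP libraries of batch 3 or FVB libraries of batch 2, and deviations from group means, were chosen after seeing the data. Quality weights stopped short of the convergence tolerance with all 24 columns and in 4 of the fits that left out a MommeD43 line. Absolute depth is unknown, so no counting error could be given, also for Dnmt3b, the member with the lowest level.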
